A study of Mus musculus with 9 samples.

Results

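Krt5, Krt14, Krt15, Krt16, Krt17 and Krt6a are keratins of stratified epithelia, the layered epithelia of epidermis, hair follicle and oral mucosa. They were taken by gene name from the 9 abundance tables, as 6 of the 54986 genes listed there. Krt14, Krt15, Krt16 and Krt17 are type I keratins and Krt5 and Krt6a are type II keratins. A gene entered the tests across all genes when it reached 1 TPM (a measure of transcript abundance scaled to transcript length and to the total of each library) in at least 3 of the 9 libraries. This left 15837 genes and 5 of the 6 keratins, all except Krt15.

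The samples were total RNA of primary mouse embryonic fibroblasts of strain C57BL/6, sequenced as TruSeq RNA libraries in a series on Tet2, the SCAN domain and Zscan4 in reprogramming. All 3 groups, of 3 libraries each, are labelled D4-OSKM-2ndMEFs, where OSKM is the usual name for the reprogramming factors Oct4, Sox2, Klf4 and c-Myc. The group called control here has that label alone, a second group overexpressed Zscan4f, a zinc finger protein with a SCAN domain that is known from early embryos and embryonic stem cells, and the third overexpressed a form labelled Zscan4f3A. The labels do not spell out D4 or 3A, and name neither an empty vector in the controls nor the vector or promoter that drove either form. Nothing in the labels says that the replicates were separate cultures, so the p-values measure only the spread between these libraries, which may be technical.

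The labelled cell type was checked against marker genes. All 18 fibroblast markers passed the filter, and their summed level was 16668 to 16875 TPM in the control libraries, 17088 to 17149 TPM with Zscan4f and 16506 to 16972 TPM with Zscan4f3A. Of 16 keratinocyte and epithelial markers other than the 6 keratins, 10 passed the filter, and their sum was 336 to 352 TPM, 453 to 456 TPM and 349 to 367 TPM in the same order. Among these markers, Perp was at 220 to 241 TPM and Itgb4 at 64.9 to 150 TPM, while Trp63 stayed at or below 1.46 TPM and Col17a1 at or below 0.247 TPM. Of the 6 below the filter, none was listed at 0 in all libraries. Zscan4f itself was at most 0.960 TPM in the control libraries, 558 to 570 TPM with Zscan4f and 654 to 836 TPM with Zscan4f3A, as the labels state, so the transcript was more abundant in the Zscan4f3A libraries. Aligned sequence came to 6.604 to 8.39 gigabases a library except Zscan4f3A replicate 3, with 3.31 gigabases.

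Keratins form intermediate filaments only as pairs of a type I and a type II chain, so that a cell needs both kinds. In epidermis, Krt5 pairs with Krt14 in the dividing basal layer, and Krt15 is a further type I partner in basal and hair follicle cells. Krt6a, Krt16 and Krt17 are known from hair follicles and other skin appendages and are induced in keratinocytes after injury. Fibroblasts build their filaments mainly from vimentin, and keratins are not their usual filament proteins.

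The genes lie in both keratin clusters of the mouse genome, all on the minus strand. The coordinates are those of GRCm38, since all 52480 gene identifiers that the tables share with the GENCODE M21 annotation of that build had identical positions there. On chromosome 11, Krt15 (ENSMUSG00000054146.8) spans 100131758 to 100135928, Krt14 (ENSMUSG00000045545.8) spans 100203162 to 100207548, Krt16 (ENSMUSG00000053797.10) spans 100246091 to 100248902 and Krt17 (ENSMUSG00000035557.9) spans 100256217 to 100261029. On chromosome 15, Krt6a (ENSMUSG00000058354.7) spans 101689910 to 101694307 and Krt5 (ENSMUSG00000061527.7) spans 101707070 to 101712898. The type I genes have 8 exons and the type II genes 9 exons in their main transcripts.

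Neighbouring keratins resemble each other in sequence, most closely Krt6a and Krt6b. The coding sequences are shown because they set how well short reads can tell the genes apart. Coding sequences were 86.5% identical between Krt14 and Krt16, 84.1% between Krt14 and Krt17 and 78.2% between Krt16 and Krt17, while Krt15 was 73.2% to 73.7% identical to the other type I members. Krt5 and Krt6a were 81.5% identical, and Krt6a was 97.8% identical to its neighbour Krt6b. The stretch of 60 coding bases in which Krt14, Krt16 and Krt17 are most alike lies in exon 1 and encodes the start of the central rod domain, the part that coils around the partner chain. It differs at 1 position, marked by the capital, at which Krt17 stands apart from the other genes (GRCm38, minus strand, chr11:100207027-100207086, chr11:100248486-100248545 and chr11:100260648-100260707):
Krt14: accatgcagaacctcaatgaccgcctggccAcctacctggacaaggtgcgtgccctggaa
Krt16: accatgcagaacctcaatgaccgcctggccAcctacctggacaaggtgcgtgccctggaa
Krt17: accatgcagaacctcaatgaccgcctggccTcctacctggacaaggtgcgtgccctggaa

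The stretch of the same length in which these genes are least alike lies in exon 5, with 26 positions that are not the same in all 3 genes, in capitals (minus strand, chr11:100204463-100204522, chr11:100247141-100247200 and chr11:100257782-100257841). Reads from there separate Krt16 from Krt14 and Krt17:
Krt14: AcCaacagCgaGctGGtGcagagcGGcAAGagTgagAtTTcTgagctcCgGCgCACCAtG
Krt16: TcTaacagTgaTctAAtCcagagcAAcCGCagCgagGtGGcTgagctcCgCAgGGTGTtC
Krt17: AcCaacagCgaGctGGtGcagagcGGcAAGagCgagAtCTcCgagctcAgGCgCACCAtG

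Krt6a, Krt6b and Krt5 share 60 bases of exon 1 letter for letter (minus strand, chr15:101693766-101693825 in Krt6a, chr15:101679741-101679800 in Krt6b and chr15:101712298-101712357 in Krt5). Even where Krt6a and Krt6b are least alike, in exon 4, only 10 of 60 positions differ (chr15:101692484-101692543 and chr15:101678303-101678362). The shared stretch and then this pair, with the differing bases in capitals, are:
Krt6a, Krt6b and Krt5: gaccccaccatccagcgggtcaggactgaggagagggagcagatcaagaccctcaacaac
Krt6a: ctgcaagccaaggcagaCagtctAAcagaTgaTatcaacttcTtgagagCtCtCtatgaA
Krt6b: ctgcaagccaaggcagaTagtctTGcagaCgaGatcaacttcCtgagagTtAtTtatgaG

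Counted over every window of 100 bases of the main transcripts, 47.5% of the Krt6a windows also occurred in another annotated gene, mainly Krt6b. For Krt16 the share was 24.3%, from the pseudogene Gm11597 and from Krt14. It was 3.81% for Krt5 and 2.88% for Krt14, and no such window of Krt15 or Krt17 was found elsewhere. With shorter windows of 50 bases the share was 62.0% for Krt6a, 37.6% for Krt16, 14.4% for Krt14 and 12.2% for Krt5. For Krt17 it was then 3.99% and for Krt15 0.666%. Gm11597 was listed at 0 TPM in all 9 libraries. The labels do not say how the counting placed reads that fit several genes. The split of such reads is therefore uncertain, most of all between Krt6a and Krt6b.

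The type I keratins Krt14, Krt16 and Krt17 rose with Zscan4f overexpression against the control, and the type II keratin Krt6a was not called. The type II keratin Krt5 was called lower, but it reached 1 TPM only in the control libraries, so it was tested only through the group in which it was highest, and its call was lost with a replicate block and without Zscan4f replicate 1 or 2. None of the 5 tested keratins was called with Zscan4f3A against the control. Against Zscan4f3A, Krt14, Krt16 and Krt17 were again higher with Zscan4f. The 3 comparisons share libraries, the controls in a pair of them and the Zscan4f libraries in another, so they are not independent of each other.

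In counts, 3 of the 5 tested keratins were called higher and 1, Krt5, lower with Zscan4f against the control, where 18.5% of all 15837 genes tested were called in either direction, 8.74% higher and 9.71% lower. Since the filter let Krt5 in only through the control libraries, nothing is read from its count against the 9.71%. With Zscan4f against Zscan4f3A, 3 of 5 were called higher and 0 lower, where 15.1% of all genes were called, 7.48% higher and 7.64% lower. With Zscan4f3A against the control, limma called 0 of 5, and 0.0316% of all genes (5 genes, 0.0189% higher and 0.0126% lower). At an unadjusted p under 0.05, 4 of the 5 keratins and 31.1% of all genes differed between Zscan4f and the control, 2 of 5 (Krt14 and Krt16) and 8.77% between Zscan4f3A and the control, and 4 of 5 and 29.5% between Zscan4f and Zscan4f3A.

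The libraries of the groups compared did not overlap for 4 of the 5 keratins in each comparison, with Krt14, Krt16 and Krt17 higher and Krt5 lower in the group named first. Over all genes tested, 38.2% did not overlap between Zscan4f and the control (19.0% higher, 19.2% lower), 15.4% between Zscan4f3A and the control (6.29% higher, 9.09% lower) and 34.8% between Zscan4f and Zscan4f3A (18.3% higher, 16.5% lower). The median log2 fold change of the 5 was 0.66 with Zscan4f and 0.22 with Zscan4f3A, each against the control, and 0.44 between the forms, where the medians of all genes tested were -0.00294, -0.0116 and 0.00209. These counts and medians describe the 5 keratins that passed the filter, which Krt5 did only through the group in which it was highest.

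**Figure D1:**
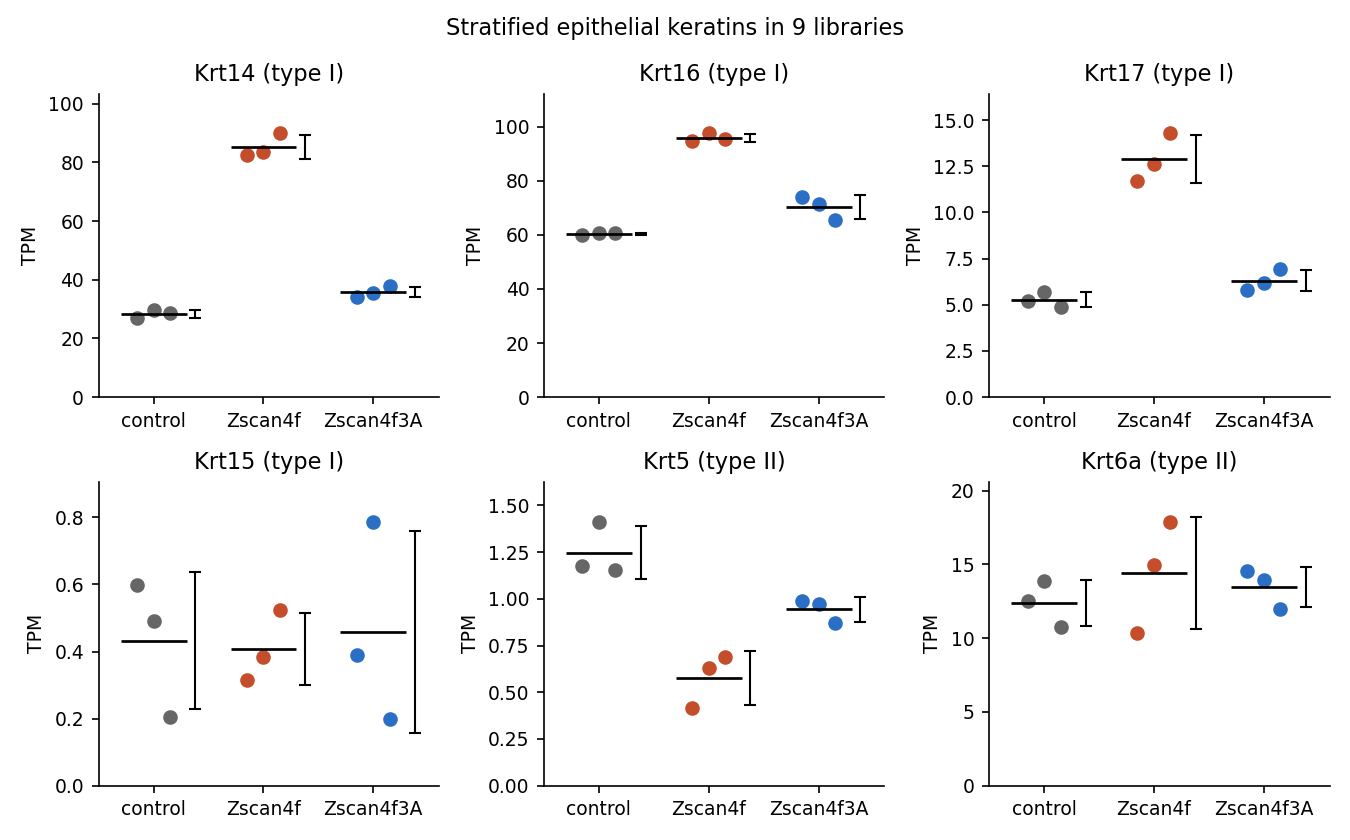
Abundance of the 6 keratins in TPM (vertical axis from 0, a scale of its own in each panel) in the 3 control, 3 Zscan4f and 3 Zscan4f3A libraries; points are libraries, horizontal lines are group means and the bars beside them are 1 SD either way. All Zscan4f libraries lie above all other libraries for Krt14, Krt16 and Krt17 and below them for Krt5, and the groups overlap for Krt15 and Krt6a.

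Krt14, the type I partner of Krt5 in basal keratinocytes, was at 26.99, 29.5 and 28.8 TPM in the control libraries. With Zscan4f it was listed at 82.6, 83.4 and 89.98 TPM, and with Zscan4f3A at 34.3, 35.6 and 37.8 TPM. The 3 groups did not overlap, and the gap between the Zscan4f libraries and all others was far wider than the spread within any group. The means were 28.5 ± 1.32 TPM in the control, 85.3 ± 4.07 TPM with Zscan4f and 35.9 ± 1.76 TPM with Zscan4f3A (SD, n = 3 each). Krt14 rose 3.00-fold in TPM with Zscan4f against the control, a log2 fold change of 1.55 on the log2(TPM + 1) scale (SE 0.06, 95% interval 1.42 to 1.68, limma adjusted p = 1.36e-06). Of all genes tested, 0.436% changed by at least as much in either direction. Against Zscan4f3A, the level with Zscan4f was 2.38 times as high (log2 fold change 1.23, SE 0.06, limma adjusted p = 8.19e-06). With Zscan4f3A against the control the ratio of means was 1.26 and the log2 fold change 0.32 (95% interval 0.19 to 0.46). That difference had an unadjusted p of 0.000403 and did not pass the adjustment over all genes (limma adjusted p = 0.299), and 9.74% of all genes tested differed by as much in this comparison.

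Krt16, a type I keratin of appendages and injured epidermis, was the most abundant of the 6 in every library. It was at 59.9, 60.5 and 60.7 TPM in the control libraries, 94.6, 97.6 and 95.6 TPM with Zscan4f and 74.2, 71.5 and 65.4 TPM with Zscan4f3A. Again no groups overlapped, with Zscan4f3A between the others. The means were 60.4 ± 0.454, 95.9 ± 1.54 and 70.4 ± 4.52 TPM (SD, n = 3 each). With Zscan4f the mean was 1.59 times that of the control, a log2 fold change of 0.66 (SE 0.05, 95% interval 0.55 to 0.77, limma adjusted p = 5.47e-05), and 1.36 times that with Zscan4f3A (log2 fold change 0.44, SE 0.05, limma adjusted p = 0.000644). The Zscan4f3A level against the control had a log2 fold change of 0.22 (95% interval 0.10 to 0.33), with an unadjusted p of 0.00199 and a limma adjusted p of 0.328.

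Krt17, a type I keratin of appendages that is also induced on injury, was at a lower level, at 5.23, 5.70 and 4.89 TPM in the control libraries, 11.7, 12.6 and 14.3 TPM with Zscan4f and 5.82, 6.16 and 6.95 TPM with Zscan4f3A. The Zscan4f libraries stood above all others, and the lowest Zscan4f3A library lay just above the highest control library. The means were 5.27 ± 0.404, 12.9 ± 1.31 and 6.31 ± 0.582 TPM (SD, n = 3 each). Krt17 rose 2.44-fold in TPM with Zscan4f against the control (log2 fold change 1.14, SE 0.10, 95% interval 0.92 to 1.37, limma adjusted p = 0.000126). Between the overexpressed forms the ratio was 2.04 (log2 fold change 0.92, SE 0.10, limma adjusted p = 0.000584). Zscan4f3A against the control gave 0.22 (95% interval -0.0077 to 0.45, limma adjusted p = 0.574), which was not called.

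Krt15, the remaining type I member, was near the lower limit of what these libraries show, with a mean read depth over the gene of 0.256 to 2.20. It was listed at 0.600, 0.491 and 0.205 TPM in the control, 0.314, 0.383 and 0.524 TPM with Zscan4f and 0.390, 0.787 and 0.199 TPM with Zscan4f3A. The groups overlapped entirely, and the gene was not tested because no library reached 1 TPM. A difference between groups was not detectable at this depth.

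Krt5, the type II partner of Krt14, was at 1.17, 1.41 and 1.16 TPM in the control libraries, 0.416, 0.628 and 0.686 TPM with Zscan4f and 0.990, 0.971 and 0.868 TPM with Zscan4f3A. The groups did not overlap, and their order was the reverse of that for Krt14. The means were 1.25 ± 0.144, 0.577 ± 0.142 and 0.943 ± 0.0655 TPM (SD, n = 3 each), with a mean read depth of only 1.16 to 4.57 over the gene. The Zscan4f mean was 0.462 times the control mean in TPM, and on the log2(TPM + 1) scale, which understates the change of such a low gene, Krt5 fell by 0.51 (SE 0.13, 95% interval -0.81 to -0.22, limma adjusted p = 0.0252). The filter was passed only through the 3 control libraries, so a gene at this level had to be higher there to be tested at all. The call was lost without Zscan4f replicate 1 (adjusted p = 0.0805) or Zscan4f replicate 2 (adjusted p = 0.0574), and without any 1 of the control libraries the gene no longer passed the filter. Krt5 was not called between Zscan4f and Zscan4f3A (log2 fold change -0.31, 95% interval -0.60 to -0.010, limma adjusted p = 0.155) or between Zscan4f3A and the control (-0.21, 95% interval -0.50 to 0.09, adjusted p = 0.657).

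Krt6a, the type II keratin that accompanies Krt16 and Krt17, was at 12.5, 13.9 and 10.8 TPM in the control libraries, 10.4, 14.9 and 17.9 TPM with Zscan4f and 14.6, 13.9 and 11.98 TPM with Zscan4f3A. The groups overlapped, and the Zscan4f libraries held both the lowest and the highest value of all 9. The means were 12.4 ± 1.57, 14.4 ± 3.80 and 13.5 ± 1.36 TPM (SD, n = 3 each). Zscan4f against the control gave a log2 fold change of 0.18 with an interval of -0.23 to 0.59 (limma adjusted p = 0.573). The estimate moved with single libraries, to 0.38 without Zscan4f replicate 1 (adjusted p = 0.108), 0.013 without Zscan4f replicate 3 and 0.085 without control replicate 3. The other comparisons gave 0.12 for Zscan4f3A against the control (interval -0.29 to 0.52, adjusted p = 0.873) and 0.06 for Zscan4f against Zscan4f3A (interval -0.35 to 0.47, adjusted p = 0.855). Krt6b, with which Krt6a shares most of its sequence, had means of 2.41 ± 0.685, 3.51 ± 0.687 and 3.31 ± 0.256 TPM (SD, n = 3 each) and was not called either (Zscan4f against the control, limma adjusted p = 0.129). An antisense gene that overlaps Krt6a was listed at 0.104 to 1.24 TPM, and the labels do not say whether the counting used strand.

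**Figure D2:**
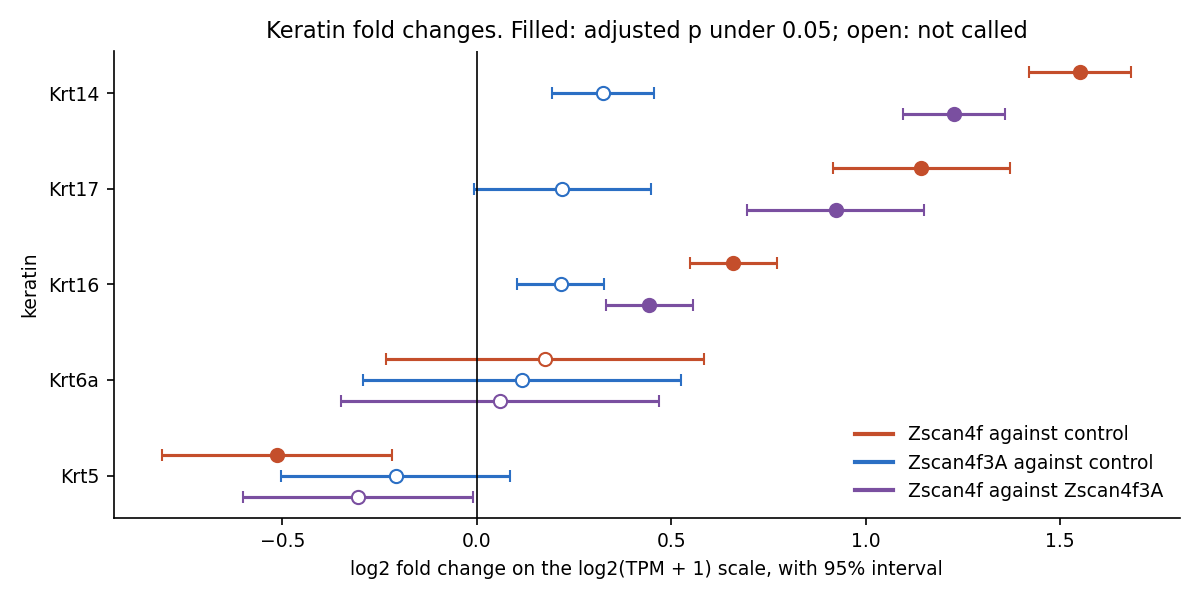
Log2 fold changes on the log2(TPM + 1) scale (horizontal axis) of the 5 tested keratins in the 3 comparisons, with 95% intervals from the limma fit over 9 libraries; filled points passed an adjusted p of 0.05 and open points did not. Krt14, Krt17 and Krt16 are filled to the right for Zscan4f against either other group, Krt5 is filled to the left for Zscan4f against the control, and all Zscan4f3A points are open.

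Within each group the order of the levels was Krt16, Krt14, Krt6a, Krt17, Krt5 and Krt15. TPM is scaled to transcript length, but the placing of reads that fit several genes is not known. Of the windows of 100 bases, 24.3% for Krt16 and 47.5% for Krt6a also occurred in another gene, so the order and the ratios between keratins are uncertain to that extent. The order held in every library, except that Krt17 was above Krt6a in Zscan4f replicate 1 (Krt6a per Krt17 of 0.884). Krt5 was above Krt15 in every library, though their ranges over the Zscan4f libraries overlapped. The level of Krt14 relative to Krt16 was 0.471 ± 0.0190 in the control, 0.889 ± 0.0461 with Zscan4f and 0.513 ± 0.0592 with Zscan4f3A (SD, n = 3 each). Krt14 thereby made up 26.3% of the summed TPM of the 6 in the control, 40.7% with Zscan4f and 28.2% with Zscan4f3A. The share of Krt16 was 55.8%, 45.8% and 55.2%. The summed level of the 6 was 108 ± 2.93, 209 ± 9.48 and 127 ± 3.81 TPM in that order.

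The ratio of type II to type I transcripts was examined because the chains pair one to one in filaments. Over the 6 keratins the ratio of summed type II to summed type I TPM was 0.144 ± 0.0169 in the control, 0.0767 ± 0.0182 with Zscan4f and 0.128 ± 0.0100 with Zscan4f3A (SD, n = 3 each). Its highest value with Zscan4f, 0.0928, lay below its lowest value in the other groups, 0.117. The ratio of Krt5 to its partner Krt14 was 0.0438 in the control, 0.00673 with Zscan4f and 0.0264 with Zscan4f3A. Krt6a per Krt17 was 2.35, 1.11 and 2.16, and Krt6a per Krt16 was 0.205, 0.150 and 0.192, with overlap between the groups in the last of these. Krt5 per Krt15 was 3.49 ± 1.92, 1.42 ± 0.186 and 2.71 ± 1.57, too variable to order the groups.

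The balance looked otherwise when all keratins of both clusters were summed, a sum chosen after the values had been seen. Its ratio of type II to type I TPM was 0.870 ± 0.0273 in the control, 0.895 ± 0.0268 with Zscan4f and 0.873 ± 0.0178 with Zscan4f3A, and the groups overlapped. Summed type I keratins went from 129 ± 1.69 TPM in the control to 235 ± 7.01 TPM with Zscan4f, and summed type II keratins from 112 ± 3.96 to 211 ± 0.253 TPM, with 146 ± 4.09 and 128 ± 1.02 TPM with Zscan4f3A. Most of the type II difference came from Krt8 and Krt80. Krt8, the usual partner of Krt18 in simple epithelia, went up from 20.2 ± 1.201 to 78.5 ± 1.88 TPM (limma adjusted p = 4.09e-07), and Krt80 from 15.8 ± 4.63 to 54.3 ± 3.40 TPM (adjusted p = 0.000288). The 6 stratified keratins held 44.9%, 47.0% and 46.5% of all keratin TPM in the control, with Zscan4f and with Zscan4f3A. The sums and ratios were described without a test.

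**Figure D3:**
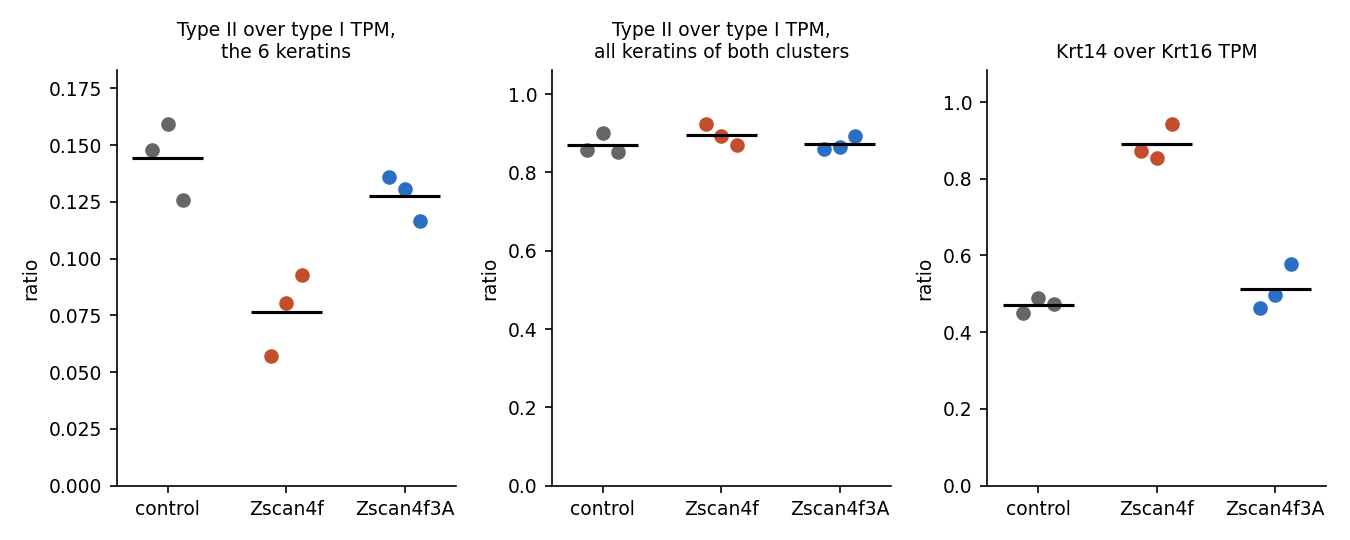
Ratios of TPM per library (vertical axes from 0) in the control, Zscan4f and Zscan4f3A libraries: type II over type I of the 6 keratins, type II over type I of all keratins of both clusters, and Krt14 over Krt16. Points are libraries and lines are group means; the Zscan4f libraries stand apart in the left and right panels, at means of 0.0767 and 0.889, and overlap the others in the middle panel.

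The gene clusters held 55 keratins in the tables, of which 17 passed the filter and 19 were listed at 0 TPM in all 9 libraries. Krt14, Krt16 and Krt17 are next to each other in the chromosome 11 cluster, and the keratins on either side of them, Krt9 and Krt42, were listed at 0 and at no more than 0.184 TPM. Beyond Krt9, Krt19 was at 9.16 ± 1.63, 9.01 ± 0.806 and 7.16 ± 0.374 TPM and was not called for Zscan4f against the control (log2 fold change -0.012, limma adjusted p = 0.963). Krt13, on the other side of Krt15, rose from 13.8 ± 0.953 to 19.0 ± 0.758 TPM (adjusted p = 0.00727). Among all type I keratins tested, 5 of 8 were called higher with Zscan4f against the control and 0 lower. These 5 include Krt14, Krt16 and Krt17, and 8.74% of all genes tested were called higher and 9.71% lower. On chromosome 15, Krt6b, Krt6a and Krt5 lie side by side, and none of the 3 was called higher. Among all type II keratins tested, 3 of 9 were called higher and 3 lower with Zscan4f against the control. The lower calls include Krt5, which was tested only through the control libraries, in which it was highest. No keratin of either type was called with Zscan4f3A against the control, where 0.0316% of all genes tested were called.

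**Figure D4:**
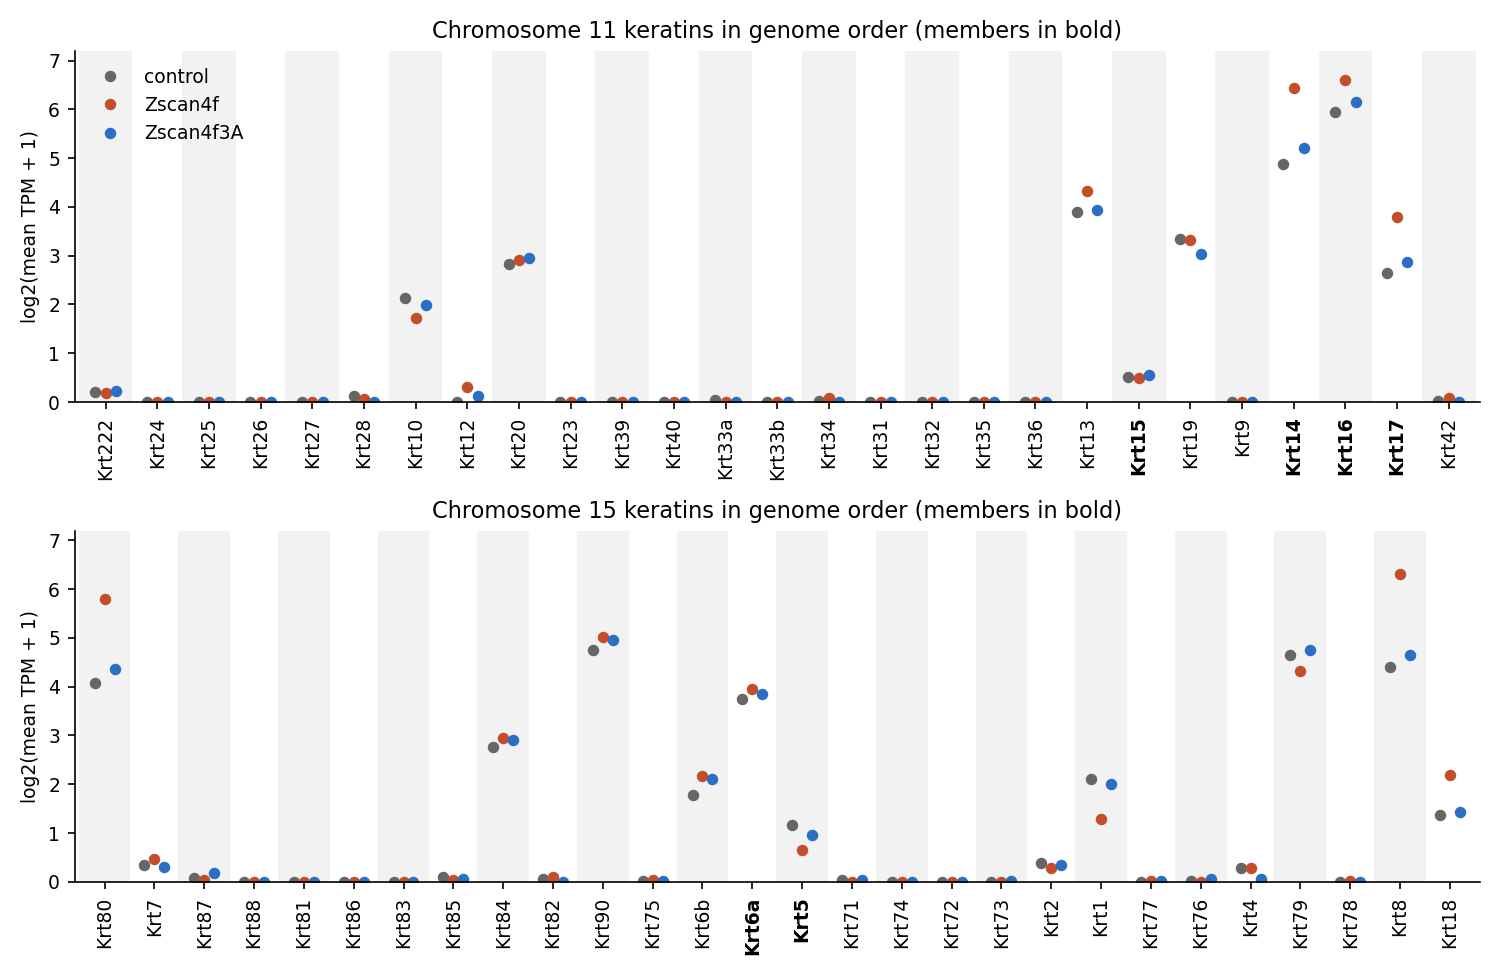
Mean abundance, as log2(mean TPM + 1) on the vertical axis, of each keratin in genome order (not to scale) in the chromosome 11 cluster, which holds type I genes, and the chromosome 15 cluster, which holds the type II genes and Krt18; points are group means of 3 libraries and the 6 keratins are in bold. Krt14, Krt16 and Krt17 stand next to each other with the Zscan4f point on top, between Krt9 and Krt42 near 0, while Krt6a and Krt5 lie beside Krt6b with small differences.

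Among 18 suprabasal and other stratified keratins, 6 were tested, and 2 were called higher and 2 lower with Zscan4f against the control (median log2 fold change 0.04), where 8.74% of all genes were called higher and 9.71% lower. Krt80 and Krt13 were the higher ones. Krt1, the type II keratin that replaces Krt5 when keratinocytes leave the basal layer, fell from 3.33 ± 0.223 to 1.46 ± 0.221 TPM (limma adjusted p = 0.00161), and Krt79 from 24.1 ± 1.68 to 18.9 ± 1.53 TPM (adjusted p = 0.0171, lost at 0.0607 without control replicate 1, at 0.0574 without Zscan4f replicate 2 and at 0.0630 without Zscan4f replicate 3). Krt10, the partner of Krt1, was at 3.37 ± 0.832 and 2.29 ± 0.0917 TPM and was not called (adjusted p = 0.140). Of 6 simple epithelial keratins, 4 were tested and 2, Krt8 and its partner Krt18 (1.58 ± 0.424 to 3.59 ± 0.844 TPM, adjusted p = 0.0127), were called higher and none lower.

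Genes known to control stratified keratins were counted next, of which 6 below the filter were not tested. Of 12 tested basal keratinocyte regulators of 18, 2 were called higher and 0 lower with Zscan4f against the control (18.5% of all genes in either direction, 8.74% higher), with a median log2 fold change of -0.00357. Among them was Grhl3, a transcription factor needed for epidermal differentiation (9.62 ± 1.27 to 16.2 ± 0.950 TPM, limma adjusted p = 0.00107). Trp63, the master regulator of stratified epithelia and an activator of Krt5 and Krt14, stayed below the filter at 0.812 ± 0.207, 0.965 ± 0.426 and 0.600 ± 0.137 TPM in the control, Zscan4f and Zscan4f3A groups.

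Calls were also counted for the structures that tie keratin filaments to the cell border. Like the keratins and the other lists, these lists were chosen with earlier results of these data known. Their counts beside the shares of all genes are therefore a description only. Of 12 tested genes of desmosomes and keratin linkers, 10 were called higher and 0 lower with Zscan4f against the control (median log2 fold change 0.85; 8.74% of all genes were called higher), and 9 higher and 0 lower against Zscan4f3A (7.48%). Of these 12, 2 (Dsg2 and Pkp3) passed the filter only through the Zscan4f libraries, in which they were highest, and they are part of the counts and the median. Dsp, the desmoplakin that binds keratin filaments to the desmosome, rose from 58.9 ± 1.75 to 112 ± 5.31 TPM (limma adjusted p = 6.45e-06) and was at 62.6 ± 1.26 TPM with Zscan4f3A. The plakophilin Pkp2 rose from 3.80 ± 0.432 to 9.75 ± 0.405 TPM, and the desmosomal cadherins Dsg2 and Dsg3 rose from 0.702 ± 0.112 to 3.84 ± 0.283 TPM and from 1.72 ± 0.172 to 5.65 ± 0.413 TPM. Dsg2 was at most 0.789 TPM in the control and 0.962 TPM with Zscan4f3A, so it was tested only because it was high with Zscan4f. Of 11 tested genes of hemidesmosomes and basement membrane anchorage, 6 were called higher and 0 lower in both comparisons of Zscan4f (median 0.42 against the control), beside 8.74% of all genes called higher against the control and 7.48% against Zscan4f3A. Itgb4, the integrin chain that links Krt5 and Krt14 filaments to the basement membrane, rose from 67.7 ± 2.52 to 145 ± 4.73 TPM (adjusted p = 1.40e-06), and the laminin chain Lama5 from 40.2 ± 1.06 to 75.3 ± 3.94 TPM. Itga3 rose from 4.39 ± 0.180 to 8.57 ± 0.365 TPM and Lama3 from 10.9 ± 0.692 to 18.2 ± 1.06 TPM.

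Genes that accompany Krt6a, Krt16 and Krt17 in injured epidermis were counted in the same way. Of 13 tested wound and stress genes of keratinocytes, 2 were called higher and 2 lower with Zscan4f against the control, with a median log2 fold change of 0.06, where 8.74% of all genes were called higher and 9.71% lower. The growth factor gene Tgfa fell from 4.77 ± 0.576 to 1.37 ± 0.169 TPM (limma adjusted p = 0.000120) and Il1rn, the interleukin 1 receptor antagonist, from 11.2 ± 1.99 to 5.66 ± 0.628 TPM (adjusted p = 0.00298). The protease gene Mmp13 rose from 0.738 ± 0.0586 to 3.50 ± 0.267 TPM (adjusted p = 0.000125), and passed the filter only with the Zscan4f libraries counted. Ier3 rose from 33.9 ± 0.844 to 39.5 ± 2.18 TPM (adjusted p = 0.0362), a call that was lost in 5 of 6 fits that left out a control or Zscan4f library, at adjusted p-values of 0.105, 0.0997 and 0.0610 without control replicates 1, 2 and 3 and of 0.102 and 0.120 without Zscan4f replicates 2 and 3. The Ier3 call was also lost without a filter (0.0564), without a trend in the variance (0.0510) and with a replicate block (0.0630). S100a8, S100a9, Il1a and Il1b, which injured keratinocytes express, were below the filter.

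Of 9 tested genes of terminal keratinocyte differentiation, 5 were called higher and 0 lower with Zscan4f against the control (median 0.65, where 8.74% of all genes were called higher) and likewise 5 and 0 against Zscan4f3A (7.48%). Of these 9, Ivl passed the filter only with control and Zscan4f3A libraries counted, and it reached 1 TPM in no Zscan4f library. Ivl was not called, and it is part of the counts and the median. Cdsn, the corneodesmosome protein, rose from 25.1 ± 1.45 to 43.5 ± 2.24 TPM, Tgm3 from 6.79 ± 0.116 to 11.2 ± 0.369 TPM, Sprr2a1 from 1.16 ± 0.140 to 4.39 ± 0.226 TPM and Tgm1 from 0.735 ± 0.0493 to 2.75 ± 0.580 TPM, with limma adjusted p-values of 0.000116, 0.000803, 0.000368 and 0.00169. Of 5 tested hair follicle and sebaceous genes of 20, 0 were called higher and 2 lower with Zscan4f against the control (9.71% of all genes were called lower). They were Lgr5 (74.96 ± 4.87 to 55.6 ± 2.96 TPM, adjusted p = 0.0122) and Sox9 (4.85 ± 0.499 to 3.26 ± 0.0779 TPM, adjusted p = 0.0160), and the Sox9 call was lost without control replicate 1 (0.0524), control replicate 3 (0.0579) or Zscan4f replicate 3 (0.0552). Among 9 tested genes of other intermediate filaments, 2 were called higher and 3 lower (8.74% and 9.71% of all genes). Vim, whose protein forms the main filament of fibroblasts, was at 2418 ± 4.54 TPM in the control and fell to 2041 ± 103 TPM with Zscan4f (adjusted p = 0.0134, lost without Zscan4f replicate 1 at 0.0513 or replicate 3 at 0.0542 and without a filter at 0.0547), against a summed level of all keratins of 241 ± 4.97 and 446 ± 6.99 TPM. Nes, the nestin gene, rose from 30.9 ± 1.65 to 79.0 ± 2.94 TPM (adjusted p = 1.48e-06), and Lmna rose from 634 ± 20.6 to 718 ± 5.48 TPM (adjusted p = 0.00784, lost with quantile normalization at 0.0648) while Sync fell from 10.6 ± 1.19 to 6.24 ± 0.947 TPM. With Zscan4f3A against the control, no gene of these lists was called, where 0.0316% of all genes tested (5 genes) were called.

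**Figure D5:**
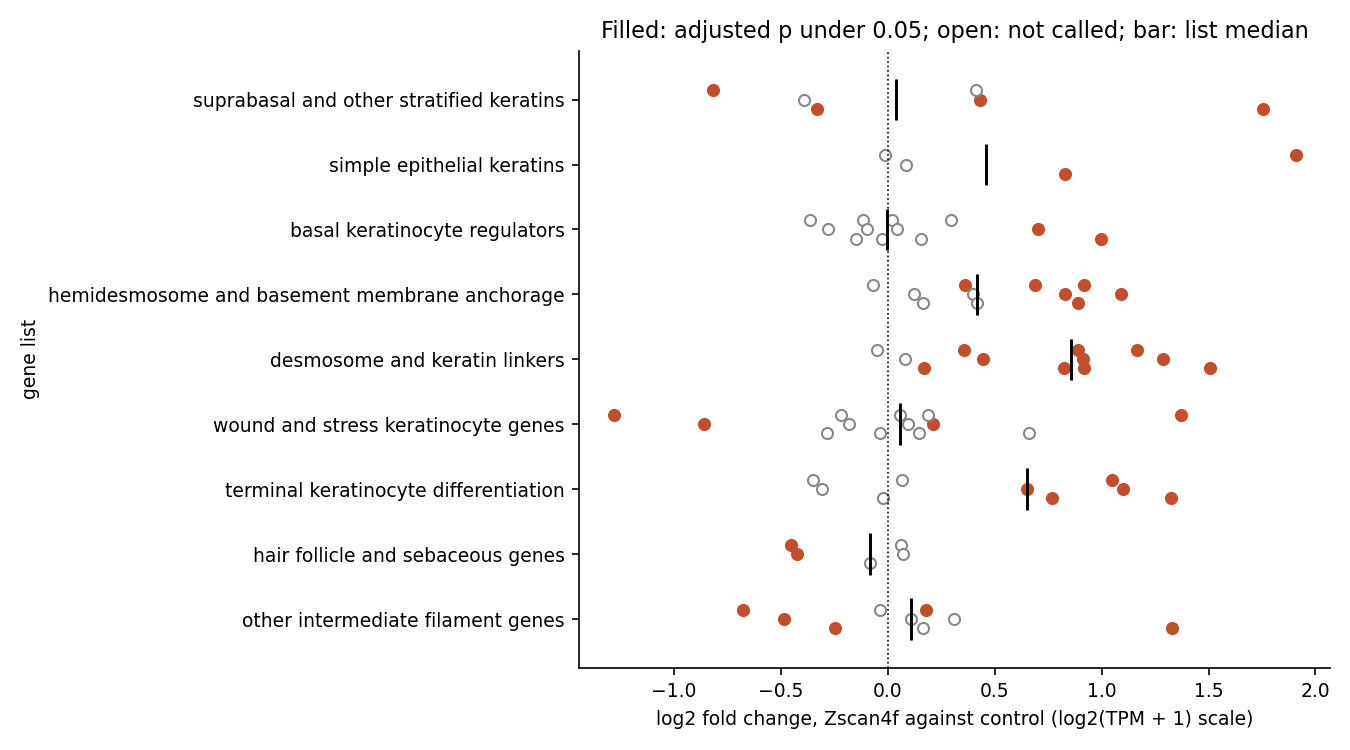
Log2 fold changes on the log2(TPM + 1) scale (horizontal axis) of the tested genes of 9 lists related to the keratins, Zscan4f against control; each circle is a gene, filled where it passed an adjusted p of 0.05, and the bar is the median of the list. Desmosome and keratin linker genes lie mostly to the right (10 of 12 filled, median 0.85), while basal keratinocyte regulators centre on 0 with 2 of 12 filled.

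Marker sums of other cell types also differed between the groups in which the keratins differed. The sum of 10 macrophage and leukocyte markers was 19.6 to 22.8 TPM in the control, 26.6 to 29.5 TPM with Zscan4f and 20.0 to 21.9 TPM with Zscan4f3A. Of the 5 tested, Cd68 was called higher and Cd14 lower with Zscan4f against the control. Cd68 made up most of this sum and went from 12.0 ± 0.967 to 18.7 ± 1.39 TPM, while Ptprc, Csf1r, Adgre1, Tyrobp and Aif1 were below the filter. The Cd14 call (limma adjusted p = 0.0440) was lost without a filter (0.126), with quantile normalization (0.0562) and with a replicate block (0.0892). It was also lost without any 1 of the control or Zscan4f libraries (0.0717 to 0.139) and without Zscan4f3A replicate 1 (0.0579) or replicate 2 (0.0548). The sum of 9 endothelial markers was 46.4 to 48.4, 60.1 to 63.9 and 45.5 to 49.9 TPM, and 2 of 3 tested were called higher and 1 lower. Tek, most of this sum, went from 30.9 ± 1.23 to 45.0 ± 0.601 TPM and Flt1 from 9.39 ± 0.743 to 14.8 ± 1.33 TPM, while Erg fell from 6.44 ± 1.19 to 1.04 ± 0.316 TPM. Pecam1, Cdh5 and Kdr were below the filter, and Cldn5 was listed at 0 throughout. Of the 10 tested keratinocyte and epithelial markers, 6 were called higher and 1 lower, and 1 of the 10, Cldn4, passed the filter only through the Zscan4f libraries. Of the 18 fibroblast markers, 4 were called higher and 7 lower. Beside the counts of these marker lists, 8.74% of all genes tested were called higher and 9.71% lower with Zscan4f against the control. Among the leukocyte markers tested, Itgam passed the filter only through the Zscan4f libraries. Fcer1g passed it only with libraries of both overexpression groups counted. In these bulk samples a larger share of cells that express a keratin and more of its RNA in each cell cannot be told apart, and the part of these other markers in the keratin differences was not tested.

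The genes whose pattern over the 9 libraries was most like that of each keratin were sought among 10578 tested genes with a mean of at least 5 TPM, by Pearson's r of log2(TPM + 1). The libraries fall into groups of which Zscan4f stands apart, so that r mostly reflects that difference and is given as a description. For Krt14 these were Tgm2 (r = 0.996), Klk14 (0.995) and Abhd17c (0.995), and Klk14, a kallikrein-related protease, went from 70.8 ± 0.890 TPM in the control to 224 ± 4.80 TPM with Zscan4f and 92.4 ± 1.90 TPM with Zscan4f3A. For Krt17 they were Hmgb2 (0.994), Cdsn (0.992) and Gprc5a (0.991), and for Krt16 they were Parm1 (0.989), Cd24a (0.988) and Calcb (0.987). Krt5, which was lowest with Zscan4f, was most like Dusp10 (0.983), Ctso (0.982) and Crabp1 (0.9753), with Dusp10 at 15.9 ± 1.09, 11.1 ± 0.943 and 13.8 ± 0.610 TPM in the control, Zscan4f and Zscan4f3A groups. Krt6a, whose groups overlapped, was most like Klhl25 (0.954), Hoxd10 (0.914) and Rhobtb2 (0.891), which followed the spread between its single libraries; Hoxd10 was at 15.4 ± 2.33, 15.9 ± 4.07 and 16.5 ± 2.24 TPM.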

How the data were processed

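Per the submitters' processing notes, reads were aligned with HISAT2 2.1.0 and quantified with StringTie; the StringTie version, genome build, annotation and use of strand are not stated there or in the labels. The authors deposited, per gene and library, TPM, FPKM and coverage (mean read depth, a signal value); no read counts were used. Here TPM was the main measure, FPKM an alternative, and coverage gave read depth and, divided by FPKM, aligned gigabases. Rows of 15 gene identifiers listed more than once were summed. log2(TPM + 1) was fitted with limma 3.58.1 in R 4.3.3 (empirical Bayes with a trend, 9 libraries, group means, two-sided), over genes of at least 1 TPM in at least 3 libraries, with Benjamini-Hochberg adjustment over all 15837 genes of each of 3 comparisons and a threshold of 0.05. The fit was tested on simulated data. No 2 libraries held identical values. The keratins and gene lists were chosen with earlier results of these data known. From each list up to 4 tested genes with the smallest p for Zscan4f against control were named, besides keratins named for their level and genes named as below the filter; 1 gene that the rule names is not reported here. Likeness took the 3 genes of highest r with a mean of at least 5 TPM. Windows were taken from GENCODE M21 transcripts; RefSeq promoters matched 2 of the 6 keratins and were not used. Alternatives changed the pseudocount, filter, scaling, samples fitted, variance model, unit and fold threshold, added a replicate block, or left out each library.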

Additional observations from a re-analysis of the deposited data

How the results depend on the processing

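The number of keratins called stayed at 3 to 4 of 6 for Zscan4f against control, 0 for Zscan4f3A against control and 2 to 4 for Zscan4f against Zscan4f3A in all alternatives run. Krt14, Krt16 and Krt17 kept their calls for Zscan4f against control in all of them, and for Zscan4f against Zscan4f3A in all but a required 1.5-fold change, which Krt16 missed. Krt5 was the least stable: its decrease was lost with a replicate block (adjusted p = 0.0571), at 1.5-fold and without Zscan4f replicate 1 or 2; it was not tested with FPKM, at a filter of 5 TPM or without a control library, and a pseudocount of 0.1 made it -1.01. Without a trend in the variance, Krt5 was also called lower against Zscan4f3A (adjusted p = 0.0437). Krt6a for Zscan4f against Zscan4f3A ranged from -0.10 to 0.26 on leaving out 1 library, below 0 without Zscan4f replicate 3 (-0.10) or Zscan4f3A replicate 3 (-0.017). Krt19 for Zscan4f against control was 0.022 with quantile normalization and ranged from -0.15 to 0.084 on leaving out 1 library. Of 957 values for the other genes named, 905 kept their direction and side of the threshold. Over all genes, a 1.5-fold requirement left 891 genes for Zscan4f against control (from 2922) and 657 for Zscan4f against Zscan4f3A (from 2395, or 1548 without Zscan4f replicate 3). For Zscan4f3A against control (5 genes) the count was 3 without a filter or with the fold requirement, and 1 to 16 on leaving out 1 library (16 without Zscan4f3A replicate 3, 10 without Zscan4f replicate 3, and 8, 9 and 1 without control replicates 1, 2 and 3). Same-numbered libraries did not deviate together (r of deviations from the group means -0.0792 to 0.0533). These r values cannot exclude that same-numbered libraries were made as matched sets, and nothing in the labels says that they were. The replicate block gave 2504, 1 and 1883 genes and, besides Krt5, changed no call of the 6 keratins. Read depth limits Krt5 and Krt15, and the depth of Zscan4f3A replicate 3 limits that group.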
